A study of Mus musculus with 2 samples.

Results

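The genes described here encode the enzymes of glycolysis and of the tricarboxylic acid (TCA) cycle, together with a neuronal glucose transporter and the kinases that set the flow between the pathways. Members were 43 named mouse genes, found by matching Ensembl gene identifiers without their version to symbols, and all 43 were present among the 43346 genes of both gene tables. For Pkm, whose product differs by splicing, both transcripts in the transcript tables were taken as well. The samples were hindbrains of B6NCrl mouse embryos at embryonic day 15.5, male and female pooled, with no treatment and no other genotype. There were 2 biological replicates in 1 group. Replicate 1 was a pool of 78 embryos and replicate 2 a pool of 62, and each was sequenced as total RNA, starting from 10 ng of molecules over 200 nt. With 1 group, the design implies levels, shares and the spread between the 2 pools, and no test between conditions.

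Glycolysis splits glucose into pyruvate, which is either reduced to lactate in the cytosol or oxidised by pyruvate dehydrogenase and the TCA cycle in mitochondria. Many of its steps can be catalysed by several isozymes, products of related genes that differ in regulation and tissue. In the nervous system Hk1, Pfkp, Aldoc, Eno2 and Ldhb are commonly named as brain or neuronal forms, whereas Hk2, Pgam2 and Eno3 are known from muscle. Pyruvate kinase has an M2 form typical of dividing cells and an M1 form typical of mature neurons and muscle.

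The tables held 40020322 and 43263959 estimated counts in genes for replicates 1 and 2, and the members held 1.06% and 1.05% of them. Levels are in TPM (length-scaled transcript abundance), a unit that allows comparison between genes. Of 7 genes listed for hindbrain, all 7 were at 1 TPM or more in both libraries, where 63.1% of nuclear protein-coding genes were. They ranged from Egr2 (2.00 and 1.30 TPM) to Hoxa5 (83.9 and 93.3 TPM), with Hoxb2 at 21.5 and 26.6 TPM. Without another tissue to compare, these levels cannot check the tissue label. The pools differed in composition-related markers. All 5 cell cycle genes were lower in replicate 2, with a summed level of 315 TPM in replicate 1 and 256 TPM in replicate 2, and the 6 erythroid genes summed to 8722 and 6805 TPM. In bulk tissue, fewer cells of a type and less RNA per cell cannot be told apart.

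Transcripts of this core pathway were abundant. Of 43 members, 42 reached 1 TPM in both libraries, where 63.1% of nuclear protein-coding genes did so. The median member stood at 114.5 TPM ± 1.22 (SD, n = 2), against 5.69 TPM ± 0.0212 over all nuclear protein-coding genes and 19.4 TPM ± 0.35 over those detected. At 100 TPM or more in both pools stood 26 members. Of these, Ogdh had the lowest mean, which was above that of 92.9% of nuclear protein-coding genes. Gapdh, the glyceraldehyde-3-phosphate dehydrogenase, was highest at 1309 and 1240 TPM. Eno1 (ubiquitous enolase) followed at 906 and 940 TPM, and Pkm at 795 and 735 TPM. At the lower end, 4 members were under 5 TPM in both libraries, namely Hk2, Hk3, Pgam2 and Pdk4. The highest of these 4 by mean, Hk2, was above 43.8% of nuclear protein-coding genes. Hk3, a hexokinase known from blood cells, was the member below the minimum, at 0.98 and 0.80 TPM.

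**Figure D1:**
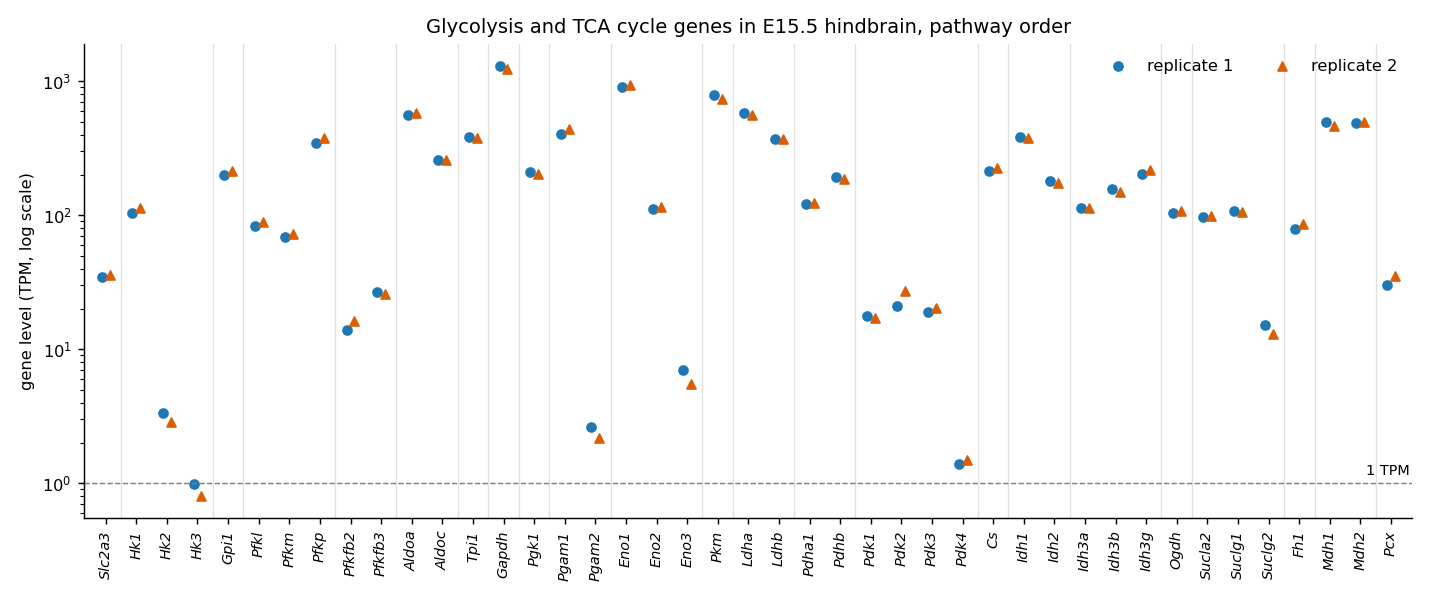
Gene level of each of the 43 members in TPM on a log axis, in pathway order, with a circle for replicate 1 and a triangle for replicate 2; the dashed line marks 1 TPM. The paired symbols nearly coincide for most genes, and Hk3 is the gene with both symbols under the line.

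The pyruvate kinase gene Pkm (chromosome 9, GRCm38 59656368 to 59679375, plus strand) was represented by 2 transcript models of equal length, 2432 nt. They differ by a pair of mutually exclusive exons, exon 9 in the M1 transcript Pkm-202 and exon 10 in the M2 transcript Pkm-201. The exons are shown because reads inside them tell the forms apart. Each is 167 nt long, at chr9:59675029-59675195 for M1 and chr9:59675568-59675734 for M2 on the plus strand of GRCm38. They are printed 5′ to 3′ from the GENCODE M21 transcripts, and capitals mark the 64 aligned positions at which they differ, leaving 61.7% identity.
Pkm M1 exon: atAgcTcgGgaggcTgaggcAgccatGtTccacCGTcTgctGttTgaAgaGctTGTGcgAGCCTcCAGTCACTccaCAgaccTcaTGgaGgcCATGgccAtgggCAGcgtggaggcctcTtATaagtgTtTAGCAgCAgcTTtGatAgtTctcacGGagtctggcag
Pkm M2 exon: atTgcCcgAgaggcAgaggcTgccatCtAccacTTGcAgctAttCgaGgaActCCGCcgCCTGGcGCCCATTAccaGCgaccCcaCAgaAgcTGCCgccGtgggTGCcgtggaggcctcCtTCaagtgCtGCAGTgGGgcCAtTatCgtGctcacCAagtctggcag

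M1 was the larger form in both pools. The M1 transcript stood at 480 TPM in replicate 1 and 495 TPM in replicate 2, and the M2 transcript at 314 and 240 TPM. M2 therefore held 39.6% of Pkm TPM in replicate 1 and 32.7% in replicate 2, a mean of 36.1% ± 4.85 (SD, n = 2). The M1 to M2 ratio was 1.53 in replicate 1 and 2.06 in replicate 2. The difference in total Pkm between the pools lay in the M2 form. After scaling, the log2 ratio of replicate 2 over replicate 1 was -0.42 for the M2 transcript (95% counting interval -0.45 to -0.39) and 0.01 for the M1 transcript (-0.01 to 0.03). Both counting intervals treat estimated counts as observed reads. They leave out the error of dividing reads outside the 2 exons between the forms. The deposited TPM interval of the M2 transcript, of unstated level, was 296.6 to 316 in replicate 1 and 226.6 to 244.6 in replicate 2. These deposited intervals did not overlap. Across all transcripts with a mean count of 20 or more, 38.0% differed by more than 0.32 on the log2 scale in either direction, a share that includes many transcripts at far lower counts. The exon content is that of the M21 models, whose version numbers for both transcripts are later than those in the tables.

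**Figure D2:**
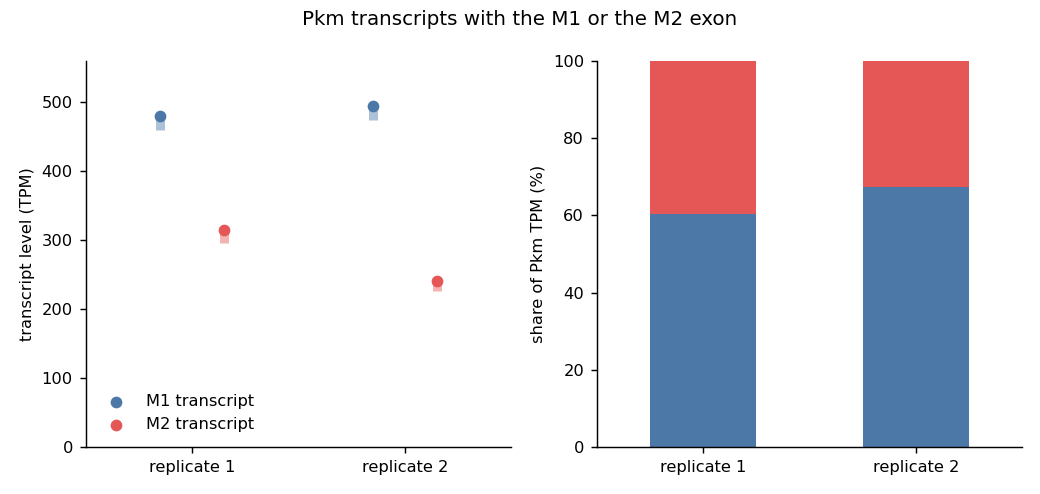
Left, level in TPM of the Pkm transcripts with the M1 (blue) or M2 (red) exon in each replicate, where points are the TPM and shaded bars the deposited interval around the posterior mean. Right, their shares of Pkm TPM in percent, in the same colours; M2 held 39.6% in replicate 1 and 32.7% in replicate 2.

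Cell cycle genes were lower in replicate 2, and no gene of the neuronal list passed the same limit. The proliferation gene Mki67 was at 7.99 and 5.18 TPM, Top2a (a DNA topoisomerase of dividing cells) at 45.3 and 35.0 TPM, and Ube2c (a mitotic ubiquitin-conjugating enzyme) at 85.7 and 63.0 TPM in replicates 1 and 2. Of the 5 cell cycle genes, 3 were lower by more than 0.32 on the log2 scale in replicate 2, where 16.7% of all genes compared passed that limit in either direction. Of the 6 neuronal genes, 5 were higher and 1 lower there in TPM, and their summed level was 3006 and 3117 TPM. The largest ratio among them was that of the synaptic gene Snap25 (179 and 223 TPM, log2 ratio 0.28), while that of the neuronal tubulin Tubb3 was 0.01. Among 7 splicing factors listed for Pkm, none passed the limit. Ptbp1, which represses the M1 exon, was at 58.5 and 63.3 TPM, and its neuronal relative Ptbp2 at 127 and 130 TPM. The 3 most abundant were Hnrnpa2b1 (587 and 579 TPM), Hnrnpa1 (509 and 492 TPM) and Srsf3 (469 and 451 TPM). The part of any of these in the M2 share was not tested.

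Glucose enters cells through Slc2a family transporters. The neuronal transporter Slc2a3 was at 34.6 and 35.8 TPM, below Slc2a1, the transporter of the blood-brain barrier and glia, at 75.4 and 77.3 TPM. Slc2a3 made up 31.4% and 31.7% of their sum. The insulin-regulated Slc2a4 was at 2.70 and 3.27 TPM. Slc2a2, the transporter of liver and pancreatic islets, was listed at 0 and 0.07 TPM, where 3 counts would give 0.0647 and 0.0744 TPM.

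Hk1 carried the hexokinase step, which traps glucose as glucose 6-phosphate. Hk1 was at 103 and 114 TPM and held 96.0% and 96.9% of the TPM of the 3 member hexokinases. With the other hexokinase paralogues added, Hk1 held 91.7% and 92.6%. Hk2, the form linked to muscle and growth, was at 3.33 and 2.85 TPM, and Hk3 at 0.98 and 0.80 TPM. Of Hk2's TPM, 58.0% and 63.5% lay in a 594-nt model not annotated as coding (Hk2-202), which held 25 and 24 counts. Restricted to protein-coding models, Hk2 stood at 1.40 and 1.04 TPM. The related Hkdc1 was at 0.47 and 0.78 TPM. The leading Hk3 model differed, Hk3-201 in replicate 1 and Hk3-204, annotated for nonsense-mediated decay, in replicate 2 with 71.2%. Beside Hk3, the macrophage genes summed to 107 and 87.6 TPM. Of these 5 of 6 were detected, and of the neutrophil genes 2 of 4, where 63.1% of nuclear protein-coding genes were. Of the neutrophil genes, S100a8 was at 7.91 and 7.87 TPM and S100a9 at 2.88 and 3.81 TPM, while Mpo and Elane were at 0.17 TPM or less. Unc5a, a gene on the strand opposite to Hk3, was at 10.6 and 12.9 TPM. The part of either in the Hk3 level was not tested. Gpi1, the isomerase that follows, was at 201 and 212 TPM.

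**Figure D3:**
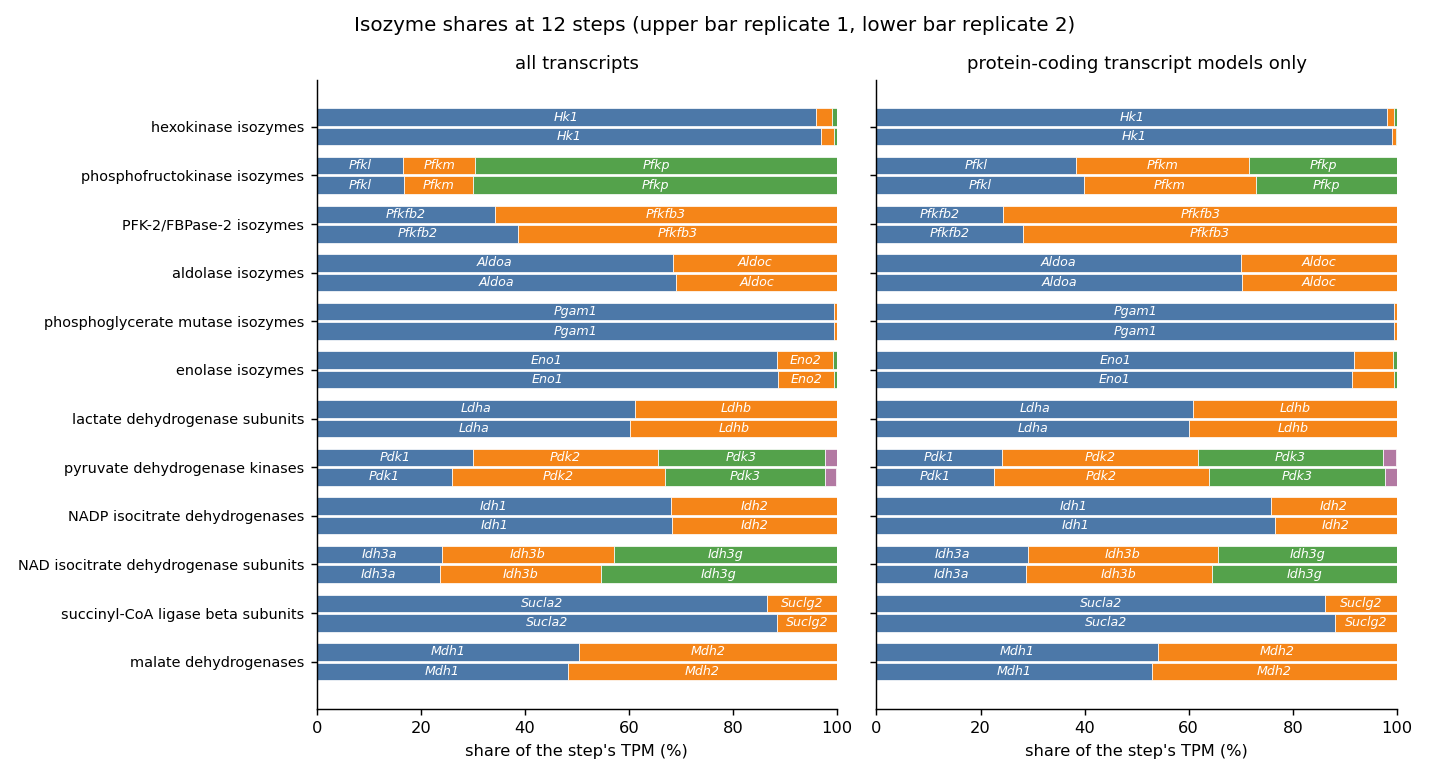
Share in percent of each step's TPM held by each member gene, for 12 steps, with the upper bar of a pair for replicate 1 and the lower for replicate 2; unlabelled slivers are the minor genes of the step. The left panel sums all transcript models and the right panel protein-coding models only, where Pfkp averages 27.8% in place of 69.7%.

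At phosphofructokinase, the committed step of glycolysis, the leading gene depended on which transcript models were summed. At gene level the platelet-type Pfkp (chr13:6579768-6648777, minus strand) was at 347 and 374 TPM, the liver-type Pfkl at 82.6 and 89.1 TPM and the muscle-type Pfkm at 69.1 and 71.8 TPM. Pfkp held 69.6% and 69.9% of the step, 4.20 and 4.19 times as much as Pfkl. Only 17.0% and 15.8% of Pfkp's TPM lay in models annotated as protein coding. The leading Pfkp model was Pfkp-210, a retained-intron model of 702 nt at chr13:6598295-6602811, with 45.4% and 47.3% of the gene's TPM. The coding model Pfkp-201 (2679 nt) held 51.5 and 51.6 TPM. Summed over protein-coding models alone, an alternative added after the data were seen, Pfkp stood at 59.1 and 58.9 TPM, Pfkl stood at 79.8 and 86.7 TPM and Pfkm was unchanged. On that scale Pfkl led, with 39.1% ± 1.05, then Pfkm with 33.1% ± 0.121 and Pfkp with 27.8% ± 0.928 (SD, n = 2). In counts, which are not corrected for length, Pfkp held 53.3% and 53.0%. A short model turns few reads into many TPM: Pfkp-210 had 2458 and 2912 counts and the longer Pfkp-201 had 3438 and 3637. Pfkm was split between 2 coding models, with Pfkm-202 leading in replicate 1 (35.0 TPM against 34.1) and Pfkm-201 in replicate 2 (42.2 against 29.7 TPM).

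Pfkp was not the sole member with much of its TPM outside coding models. Among members at 5 TPM or more with several transcripts, 2 of 34, Pfkp and Gapdh, had under 50% of TPM in coding models in both libraries, where 10.1% of nuclear protein-coding genes did. Coding models held over 95% of TPM in both libraries for 19 of the 34. The same share over all such genes was not computed, so this count describes the members only. For Gapdh they held 39.9% and 45.6%, or 522 and 565 TPM. The rest lay mainly in Gapdh-208, a 483-nt processed transcript at 779 and 669 TPM, backed by 7738 and 7022 counts, against 16245 and 17533 counts for the coding Gapdh-203 (1420 nt). By coding TPM, Gapdh ranked 5 of 43 rather than 1, and Eno1 was first at 880 and 914 TPM. In 5 of the 34 members the leading transcript held under 50% in both pools or differed between them (Eno2, Pfkfb2, Pfkfb3, Pfkm and Pfkp), against 24.1% of such genes overall. The neuronal enolase Eno2 was led by Eno2-201 with 33.7% and 34.7%. Pfkfb2 was led by Pfkfb2-204 with 47.6% and 40.1%, and Pfkfb3 by Pfkfb3-205 with 23.8% and 26.1%.

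**Figure D4:**
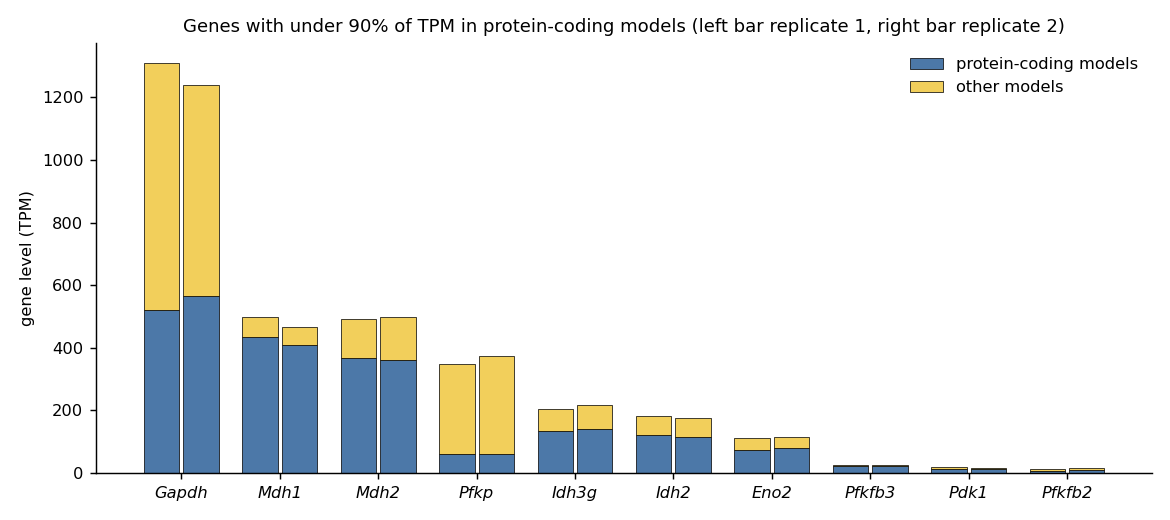
Gene level in TPM split into protein-coding models (blue) and other models (yellow) for the 10 members at 5 TPM or more with under 90% in coding models in both pools, with the left bar for replicate 1 and the right for replicate 2. Gapdh and Pfkp have more yellow than blue in both bars.

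The PFK-2/FBPase-2 enzymes make and degrade fructose 2,6-bisphosphate, the activator of phosphofructokinase. Pfkfb3, the form with high kinase activity, was at 26.6 and 25.7 TPM and Pfkfb2, known from heart, at 13.8 and 16.2 TPM. Pfkfb3 held 65.8% and 61.3% of this pair, a spread of 3.19 percentage points (SD, n = 2). Pfkfb4 (15.2 and 16.3 TPM) lay at about the level of Pfkfb2, and Pfkfb1 was at 4.06 and 4.12 TPM. With all 4 genes summed, Pfkfb3 held 42.9% ± 2.38.

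Aldolase, which cleaves fructose 1,6-bisphosphate, was shared by Aldoa and Aldoc. The ubiquitous Aldoa was at 560 and 578 TPM and the brain-type Aldoc at 257 and 258 TPM, giving Aldoc 31.5% and 30.9% of the step. Aldoc changed little when protein-coding models alone were summed, at 29.8% ± 0.121 (SD, n = 2). The triose-phosphate isomerase Tpi1 was at 380 and 377 TPM, and the phosphoglycerate kinase Pgk1, on the X chromosome, at 210 and 204 TPM. The testis counterpart of Gapdh, Gapdhs, was at 1.14 and 0.64 TPM. That of Pgk1, Pgk2, was listed at 0, where 3 counts would give 0.0776 and 0.0735 TPM.

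Mutase and enolase each had 1 dominant gene. Pgam1, the brain-type phosphoglycerate mutase, was at 405 and 440 TPM, and the muscle-type Pgam2 at 2.61 and 2.17 TPM, so that Pgam1 held 99.4% and 99.5%. Eno1 held 88.5% and 88.6% of enolase TPM. Eno2 was at 111 and 115 TPM, or 10.8% and 10.9%. The muscle enolase Eno3 was at 6.95 and 5.48 TPM, and its leading model Eno3-206 held 45% in replicate 1 and 86.7% in replicate 2. Eno4 was at 1.06 and 1.36 TPM. Beside Pgam2 and Eno3, 5 of 8 skeletal muscle genes were detected, where 63.1% of nuclear protein-coding genes were. The 8 muscle genes summed to 20.8 and 17.9 TPM. In TPM, 3 of them were higher and 5 lower in replicate 2. Acta1 was at 8.43 and 6.56 TPM, whereas Actn3 was at 1.32 and 1.90 TPM. Ckm (muscle creatine kinase) was at 0.87 and 0.12 TPM, from 30 and 4 counts, a mean below the minimum for ratios. The part of the muscle genes in the levels of Pgam2 and Eno3 was not tested.

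Lactate dehydrogenase, a tetramer of A and B subunits that interconverts pyruvate and lactate, was expressed from both genes. Ldha was at 582 and 562 TPM and Ldhb, the subunit favoured in heart and neurons, at 370 TPM in both. Ldha held 61.1% and 60.3% of the sum, a mean of 60.7% ± 0.586 (SD, n = 2), and the order was the same in both libraries. The testis form Ldhc was at 0.27 and 0.21 TPM. Pklr, the pyruvate kinase gene of liver and red cells, was at 0.07 TPM in both.

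Pyruvate reaches the cycle through pyruvate dehydrogenase. Its E1 subunit genes Pdha1 and Pdhb were at 121 and 123 TPM and at 192 and 187 TPM. The testis gene Pdha2 was listed at 0, where 3 counts would give 0.0515 and 0.0487 TPM. Of the kinases that switch the complex off, 3 were at similar levels. Pdk2 was at 21 and 27.1 TPM, Pdk3 at 19.0 and 20.2 TPM, and Pdk1, a target of hypoxia signalling, at 17.8 and 17.2 TPM. Pdk4, induced by fasting in other tissues, was at 1.39 and 1.5 TPM, or 2.35% and 2.28% of the 4 kinases. Pdk2 held 35.4% and 41.0%. The mean shares were 38.2% ± 3.97 for Pdk2, 31.4% ± 1.07 for Pdk3 and 28.1% ± 2.84 for Pdk1 (SD, n = 2). In replicate 1 the lead of Pdk2 over Pdk3 (32.2%) was smaller than the SD of the Pdk2 share. By counts, uncorrected for length, Pdk1 came first with 44.5% ± 2.53. Pyruvate carboxylase (Pcx), which feeds oxaloacetate into the cycle and is known as an astrocytic enzyme, was at 30.3 and 35.1 TPM. Beside it, 4 of 6 radial glia and astrocyte genes were higher and 2 lower in replicate 2, from Aldh1l1 (52.3 and 65.8 TPM) to Aqp4 (6.97 and 5.78 TPM), none past the limit. Their summed level was 2005 and 2121 TPM, and their part in the Pcx difference was not tested.

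TCA cycle genes ranged from Suclg2 (15.1 and 13.1 TPM) to Mdh1 and Mdh2 near 500 TPM. Citrate synthase (Cs) was at 213 and 224 TPM. Among isocitrate dehydrogenases, the cytosolic NADP enzyme Idh1 was at 385 and 375 TPM and its mitochondrial relative Idh2 at 180 and 174 TPM, giving Idh1 68.1% and 68.3%. The NAD enzyme of the cycle proper is a complex of different subunits, so its shares are subunit proportions and not isozyme choice. Idh3a, the catalytic subunit, was at 114 and 113 TPM, Idh3b at 157 and 148 TPM and Idh3g at 203 and 217 TPM. The lead of Idh3g did not hold over coding models alone, where Idh3b was at 143 and 141 TPM and Idh3g at 134 and 140 TPM. Nop56, on the strand opposite to Idh3b, was at 178 and 192 TPM, and reads in any overlap of the pair cannot be told apart where strand was not used.

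Later steps of the cycle were as follows. Ogdh, the E1 subunit of oxoglutarate dehydrogenase, was at 104 and 108 TPM, and its brain-enriched relative Ogdhl at 14.4 and 15.5 TPM, 12.2% and 12.6% of the pair. The leading model Ogdh-201 held 50.8% and 46.3% of Ogdh. Of the succinyl-CoA ligase beta subunits, the ATP-forming Sucla2 was at 97.2 and 99.4 TPM and the GTP-forming Suclg2 at 15.1 and 13.1 TPM. Sucla2 held 86.5% and 88.4%, and the shared alpha subunit Suclg1 was at 108 and 106 TPM. Fumarase (Fh1) was at 78.6 and 85.9 TPM. The cytosolic malate dehydrogenase Mdh1 was at 499 and 465 TPM and the mitochondrial Mdh2 at 491 and 497 TPM, so their order changed between libraries. Their relative Mdh1b was at 0.57 and 0.54 TPM. Mdh1 held 49.4% ± 1.46 (SD, n = 2), a split even within the spread. Over coding models Mdh1 led in both pools, at 433 and 407 TPM against 368 and 361 TPM. These sums leave out 23.7% and 25.9% of Mdh2, which lay in a model annotated for nonsense-mediated decay. For Mdh1 they include 164 and 153 TPM of Mdh1-202, a 549-nt model with 1912 and 1887 counts. The longer coding model Mdh1-201 alone was at 269 and 254 TPM, below the coding sum of Mdh2.

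A single gene held over 80% of the step in both libraries at 4 of 12 steps: Hk1, Pgam1, Eno1 and Sucla2. Aldolase, lactate dehydrogenase and the NADP isocitrate dehydrogenases each had a leading gene at about 60% to 70%. The leading gene was the same in both libraries at 11 of 12 steps, the exception being malate dehydrogenase. Restricting the sum to coding models kept the leader at 9 of 12 steps and replaced it at phosphofructokinase, NAD isocitrate dehydrogenase and malate dehydrogenase.

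Between the pools, 2 of 43 members passed the limit of 0.32 on the log2 scale in either direction after TMM scaling, where 16.7% of all 17048 genes compared did. Both were lower in replicate 2 and both were low in level. Hk2 had 221 and 178 counts and a log2 ratio of -0.42 (95% counting interval -0.72 to -0.13), and Eno3 a log2 ratio of -0.33 (-0.62 to -0.04). Each interval reaches inside the limit, and 1 library per pool gives no estimate of spread within a pool. The most positive ratio was that of Pdk2, at 0.28 (0.16 to 0.39). Among the better-measured members, the log2 ratio was -0.15 for Pkm (-0.16 to -0.13), -0.12 for Mdh1 (-0.15 to -0.09) and 0.11 for Hk1 (0.07 to 0.15). Pcx, with 3173 and 3881 counts, was at 0.18 (0.11 to 0.25). Suclg2, with 853 and 778 counts, was at -0.24 (-0.38 to -0.10). Within 1.1-fold lay 35 of 43 members, against 57.7% of all genes compared, which include many at lower counts. The median member ratio was -0.02, and that of all genes 0.00.

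**Figure D5:**
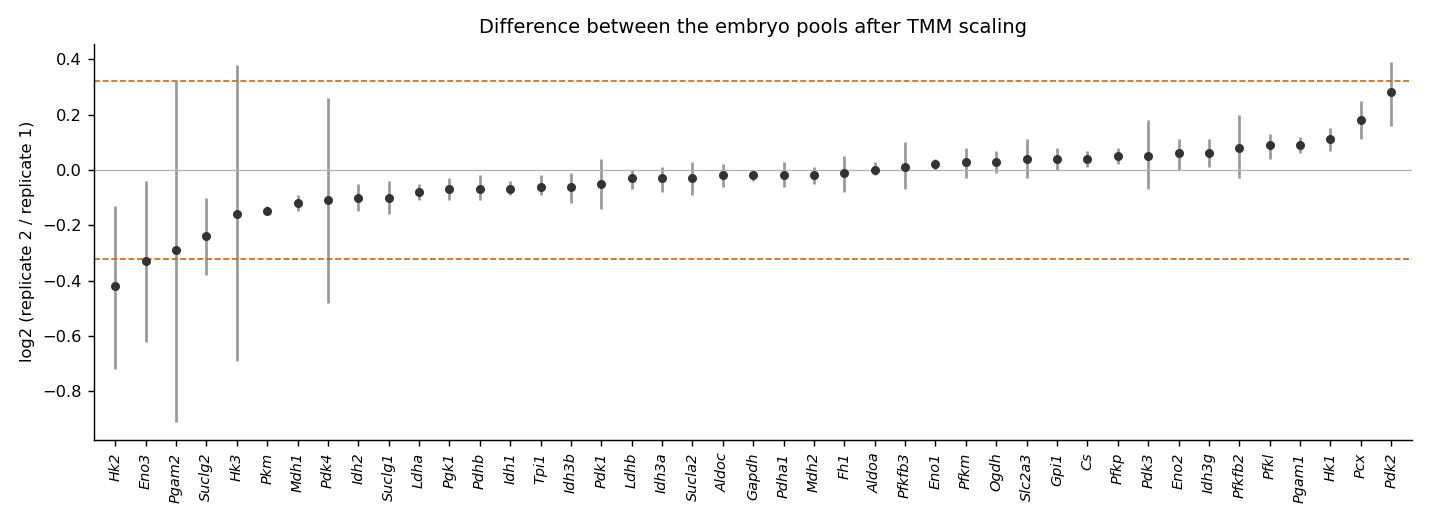
Log2 ratio of replicate 2 over replicate 1 for each member after TMM scaling, sorted, with bars for the 95% counting interval and dashed lines at 0.32 in either direction. Hk2 and Eno3 lie below the lower line, and the widest intervals belong to Pgam2, Hk3, Pdk4 and Hk2.

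Several members have near-identical copies elsewhere. Copies at 95% identity or more over at least 200 nt were found for 9 members. Gapdh had 85 in the tables, which summed to 90.5 and 80.1 TPM, or 6.47% and 6.07% of the total with Gapdh. The pseudogene Pgam1-ps2, identical to Pgam1 over 765 nt, was at 71.8 and 58.2 TPM, or 15.1% and 11.7% of the sum. Pgk1-rs7, identical to Pgk1 over 1255 nt, was at 25.7 and 36 TPM. Copies of Eno1 (Gm4735 at 25.5 TPM in both and Eno1b at 5.68 and 3.04 TPM) came to 3.33% and 2.95%. For Ldhb the copy Gm5514 was at 4.48 and 1.73 TPM, and for Ldha the copy Ldha-ps2 was at 1.54 and 1.27 TPM. Whether reads were shared between these genes and their copies was not tested, and their levels are uncertain. Antisense neighbours are a further limit. A gene on the opposite strand overlapped 18 members, and at 13 of them one was at 1 TPM or more. The same counts over all genes were not computed, so these describe the members only. Pitrm1, at 24.7 and 25.7 TPM, overlaps the end of Pfkp over 748 bases (chr13:6579768-6580515). Pfkp-210 and the coding Pfkp-201 do not reach that span. The retained-intron Pfkp-202 (10.2 TPM in both) and the coding Pfkp-207 (7.63 and 7.36 TPM) each hold all 748 bases.

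The partner genes of these enzymes were likewise expressed. For comparison, 63.1% of nuclear protein-coding genes were detected, and 16.7% of all genes compared passed the limit in either direction. Of 7 partners of the dehydrogenase complexes all 7 were detected and none passed the limit. Their 3 most abundant were Dld, the shared E3 subunit (99.9 and 94.9 TPM), Dlst, the E2 subunit of oxoglutarate dehydrogenase (76.1 and 78.2 TPM), and Pdhx, the E3-binding protein (53.7 and 54.8 TPM). All 8 genes for aconitases and succinate dehydrogenase were detected and none passed it, with Sdhb at 384 and 388 TPM and Sdhc at 229 and 237 TPM. Of 7 transport genes 6 were detected. Bsg, the chaperone of monocarboxylate transporters, was at 795 and 796 TPM, and the mitochondrial pyruvate carriers Mpc1 and Mpc2 were at 293 and 276 TPM and at 181 and 165 TPM. In this list 1 gene, Slc16a8, passed the limit, lower in replicate 2 and below 1 TPM in both.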

How the data were processed

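Total RNA of the 2 pools was measured with added spike-ins. Per the file headers and notes, gene and transcript tables were made on mm10 with GENCODE M4, 1 library each. The aligner, the quantifier and any use of strand were not given in the sources used here. Estimated counts, as deposited, are not normalized. The deposited TPM and FPKM values are scaled by the authors for effective length (99 nt below length) and depth. The deposited TPM bounds, handled as a signal, describe the posterior mean.

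Symbols, transcript types and positions came from GENCODE M21 (GRCm38, the assembly of mm10) by identifier without version, which matched 42462 of 43346 genes and all 269 member transcripts. Spike-ins (2.86% and 3.09% of counts) and features with numeric identifiers (under 0.0001% of counts) stayed out of library sizes. Ratios used estimated counts (rounded only to compute size factors), TMM in edgeR 4.0.16 under R 4.3.3, a prior count of 0.5 and a mean count of 20 or more. Counting intervals are Clopper-Pearson at 95%, and they and the floor of 3 counts cover counting error only. Replicate counts differed by more than sampling noise (chi-square per gene 11.6). Copies were sought with BLAST 2.17.0. Scripts ran under Python 3.11.15, pandas 2.3.3 and scipy 1.17.1, and the ratio was tested on simulated data. With 1 group of 2 libraries no p-value was computed.

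Members, lists and markers were chosen with earlier results of these data known. Named were all members, the 3 genes of highest TPM in each other list, paralogues of a step, copies at 1 TPM or more in both libraries (for Gapdh as a sum), and leading transcripts under 50% or differing; further transcripts, single markers and Slc16a8 were named after their values were seen. A few genes due to be named are not reported here. Alternatives were TPM minimums of 0.5 and 2, an FPKM minimum of 1, posterior mean TPM, the lower TPM bound, estimated counts, added paralogues, share limits of 70% and 90%, DESeq2 1.42.0 size factors, library and spike-in totals, count minimums, TPM pseudocounts of 1 and 0.1, 1.5-fold, each library alone and, added later, protein-coding models only.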

Additional observations from a re-analysis of the deposited data

How the results depend on the processing

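Detection of members, the Pkm M2 share and the number of steps with a gene over 80% moved by less than the limits set under all alternatives except a share limit of 90%, under which 2 steps remained. Leaving out a replicate gave 42 detected members each time, an M2 share of 32.7% to 39.55% and 4 steps each time. The count of members past 0.32 on the log2 scale was 2, but 1 with DESeq2 size factors, 4 with spike-in totals (Hk2, Pgam2, Eno3 and Suclg2), 1 on TPM with a pseudocount of 1 (Pdk2) and 0 at 1.5-fold. On TPM with a pseudocount of 0.1 the count stayed at 2, but the members were Eno3 and Pdk2, without Hk2. Spike-in totals shifted the median gene by -0.113 on the log2 scale. Of 30 shares, 25 moved by more than the spread with counts, 22 with protein-coding models, 6 with posterior mean TPM and 5 with added paralogues. Among steps, 9 of 12 kept their leading gene with counts and 9 with protein-coding models. No paired analysis was possible because there is 1 group. Depth limits Hk3, Hk2, Pgam2 and Pdk4 most.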

Other observations

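Pathways that branch from glycolysis were also expressed in these hindbrains, where 63.1% of nuclear protein-coding genes were detected. Their genes past 0.32 on the log2 scale between the pools are given beside the 16.7% of all genes compared that passed it. All 8 pentose phosphate genes were detected and none passed this limit, with the transaldolase Taldo1 at 221 and 230 TPM, the lactonase Pgls at 179 and 188 TPM and the transketolase Tkt at 137 and 143 TPM. All 9 genes of the shuttles that carry NADH electrons and related carboxylates across the mitochondrial membrane were detected. The aspartate aminotransferase Got2 was at 176 and 178 TPM, the citrate carrier Slc25a1 at 154 and 164 TPM and the oxoglutarate carrier Slc25a11 at 133 and 142 TPM. In that list 1 of 9 genes passed this limit, Gpd1 (2.88 and 3.79 TPM), named after its values were seen. All 13 genes of the serine branch and glutamine entry were detected and 1 passed this limit (Gls2, 1.61 and 1.82 TPM, named likewise), with the ATP citrate lyase Acly at 184 and 185 TPM, the glutamine synthetase Glul at 173 and 170 TPM and Phgdh, the first enzyme of serine synthesis, at 143 and 152 TPM.

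Of 13 genes of gluconeogenesis and glycogen, 9 were detected, where 63.1% of nuclear protein-coding genes were. In this list 1 of 10 genes compared passed this limit, Fbp2 (0.98 and 0.57 TPM), named after its values were seen. Brain glycogen phosphorylase Pygb was at 109 and 121 TPM, Pgm1 at 70.4 and 71.2 TPM and the ubiquitous glucose-6-phosphatase G6pc3 at 33.0 and 32.7 TPM. The cytosolic gluconeogenic enzyme Pck1 was listed at 0, where 3 counts would give 0.0668 and 0.0633 TPM. Among 13 hypoxia-response genes 12 were detected and none passed this limit, with the mitophagy receptor Bnip3 at 84.3 and 81.0 TPM, Hif1a at 61.8 and 65.1 TPM and Vhl at 59.7 and 57.4 TPM.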
